A study of Mus musculus with 19 samples.

Results

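Abdominal aortas rich in mRNA of sympathetic neurons were compared with aortas poor in it, among 19 libraries. The libraries were ranked by the CPM (counts of a gene scaled to 1000000 counts in genes) of Th, the gene of tyrosine hydroxylase, the rate-limiting enzyme of catecholamine synthesis. The 6 libraries with the highest Th CPM were called Th-rich and the 6 with the lowest Th-poor, 12 libraries of 19 in all, and the other 7 were intermediate. Because the libraries were selected on measured Th, the contrast of Th-rich with Th-poor aortas is given as a description without a test. Whether other genes follow Th was tested only in the 7 intermediate libraries, which the ranking did not place in either set.

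All mice were male Apoe-/- mice on C57Bl/6J, 8 to 10 weeks old, which received angiotensin II (AngII) from an implanted osmotic pump. Control mice (n = 5) were not irradiated and had the same anesthesia, D-3 IR mice (n = 7) received 1 Gy to the whole body 3 days before the pump, and D+1 IR mice (n = 7) received it 1 day after. Each mouse gave 1 library of poly(A)-selected RNA, and no aorta without AngII was analysed here, so every value comes from an infused, hypercholesterolemic aorta. The study took tissue for analysis at day 7 of infusion and followed other mice to day 28, and the labels do not give the day of the sequenced aortas.

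Postganglionic sympathetic neurons have their cell bodies in ganglia beside the aorta and send axons into the adventitia of arteries. They make noradrenaline from tyrosine through tyrosine hydroxylase, dopa decarboxylase and dopamine beta-hydroxylase, load it into vesicles, release it together with neuropeptide Y and take it up again through the noradrenaline transporter. Messenger RNA for these proteins is made in the cell body, while axons in the vessel wall hold little of it.

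The depth was 25839001 to 97083681 counts in genes per library, and 25839001 to 79066549 in Th-rich and 31395455 to 97083681 in Th-poor libraries. Among genes with 1 to 10 counts, 55.4% to 68.8% of the values were even numbers, and reads of either strand were equally frequent, so a count need not be an independent molecule and overlapping genes on opposite strands cannot be told apart. The Th-poor library D-3 IR 14 stood apart at low counts, with 257 genes at exactly 2 counts against 1833 to 2445 genes in each of the other 18 libraries. The files of D+1 IR 1 and 2, which were Th-poor, and D+1 IR 3, which was Th-rich, were named as a series of their own.

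Th lies on chromosome 7 of GRCm38 (142892752 to 142931128, minus strand). The Th-rich libraries, from the highest down, were control 8 with 875 CPM, D+1 IR 17 with 749.5, D+1 IR 3 with 383, D+1 IR 20 with 289, control 4 with 265 and D-3 IR 10 with 179 CPM of Th. The Th-poor libraries, likewise, were D-3 IR 14 with 1.23 CPM, D-3 IR 16 with 0.319, D-3 IR 11 with 0.196, D+1 IR 1 with 0.103, control 6 with 0.0941 and D+1 IR 2 with 0 of 49757413 counts, which allows up to 0.0603 CPM. The nearest libraries outside the sets were D-3 IR 12 at 152 CPM, just under the lowest Th-rich library, and control 5 at 4.59 CPM, just over the highest Th-poor one. Fewer neurons and less RNA per neuron cannot be told apart in bulk tissue.

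**Figure D1:**
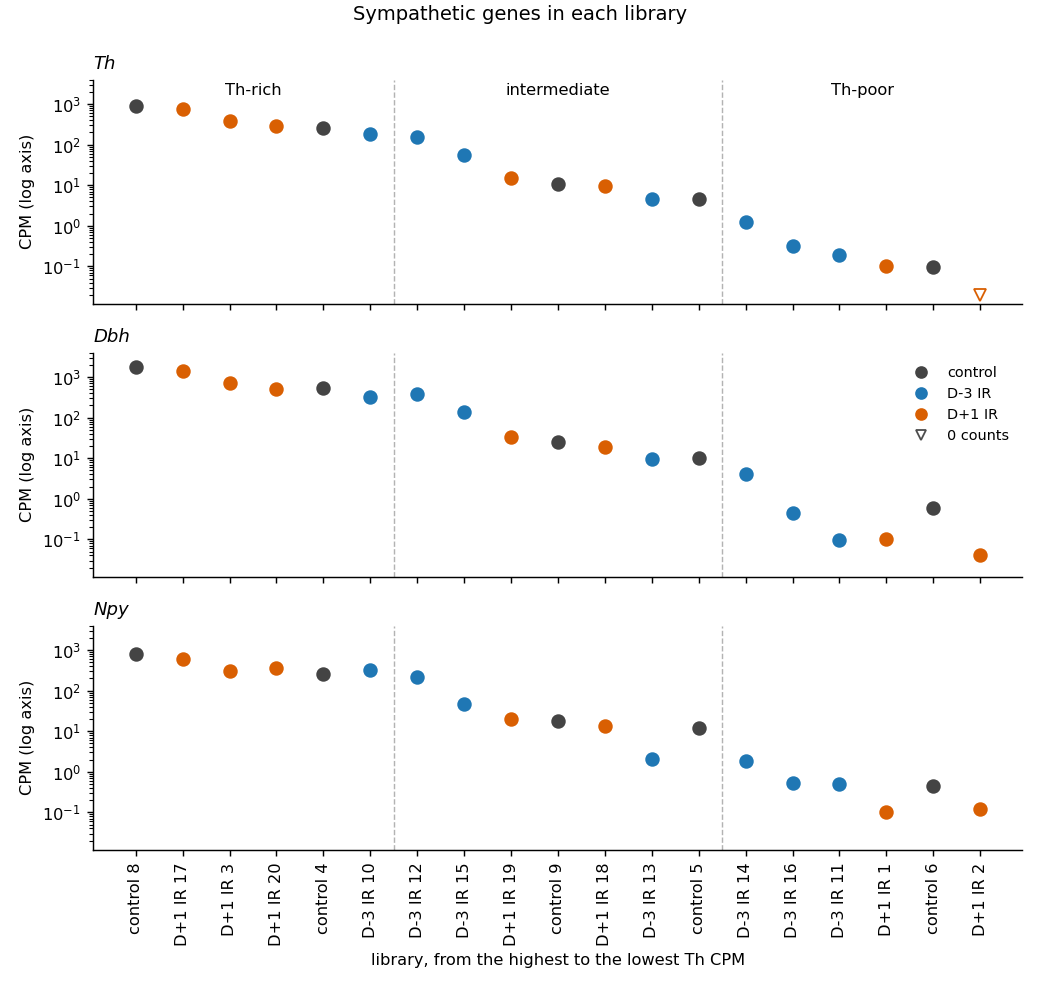
CPM of Th, Dbh and Npy on a log axis in each of the 19 libraries, ordered by Th and colored by irradiation group, with dashed lines between Th-rich, intermediate and Th-poor libraries and an open triangle for 0 counts. Dbh runs from 1735 CPM in control 8 to 0.0402 CPM in D+1 IR 2, and each irradiation group has libraries in all 3 classes.

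Both extremes were found in every irradiation group. Th-rich libraries came from 2 control, 1 D-3 IR and 3 D+1 IR mice, and Th-poor libraries from 1 control, 3 D-3 IR and 2 D+1 IR mice. The 5 control libraries spanned 0.0941 to 875 CPM of Th around a median of 11.0. The 7 D-3 IR libraries reached from 0.196 to 179 CPM with 4.63 as their median, and among the 7 D+1 IR libraries the lowest had 0, the median one 14.9 and the highest 749.5 CPM.

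Dbh, the gene of dopamine beta-hydroxylase, which turns dopamine into noradrenaline (chromosome 2, 27165233 to 27183200), had the largest difference of the genes without overlap. It had 1735, 1395, 729.5, 496, 544 and 327 CPM in the Th-rich libraries, in the order given for Th, and 4.01, 0.446, 0.0980, 0.103, 0.596 and 0.0402 CPM in the Th-poor ones. The sets did not overlap, and the mean log2 difference was 11.00 (standard error 0.92, n = 6 and 6). Npy, the gene of neuropeptide Y (chromosome 6, 49822710 to 49829507), had 816, 597, 312, 359, 253 and 328 CPM in Th-rich and 1.86, 0.541, 0.490, 0.103, 0.455 and 0.121 CPM in Th-poor libraries. The order among the Th-rich libraries was not that of Th, since D-3 IR 10 and D+1 IR 20 had more Npy than control 4, but the sets again lay apart, with a log2 difference of 9.86 (standard error 0.62).

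By its RefSeq start the Th gene holds the sequence of a cAMP response element, and so do the genes of some but not all proteins of the secretory vesicle. Promoter windows of RefSeq (GRCm38.p6) were searched for the motif TGACGTCA, which reads the same on both strands, from 250 bases before to 50 bases after the start. An entry was found for 13 of 17 sympathetic genes looked up, and 4 of them held the motif, Th, Slc18a2, Chgb and Scg2. The vesicle genes Npy and Chga were among those without it. The 100 bases before the start are shown for the genes in which the motif lies there, with the motif in capitals, and for Dbh, whose window has no such run of letters. They are Th at chr7:142899996-142900095 (minus strand), Chgb at chr2:132781542-132781641 (plus strand), Scg2 at chr1:79440027-79440126 (minus strand) and Dbh at chr2:27165407-27165506 (plus strand). The starts are those of RefSeq and differ from GENCODE M21, so the stretches of Th and Dbh lie inside the gene positions given above.
Th: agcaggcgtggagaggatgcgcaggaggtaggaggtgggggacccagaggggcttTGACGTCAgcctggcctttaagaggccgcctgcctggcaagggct
Chgb: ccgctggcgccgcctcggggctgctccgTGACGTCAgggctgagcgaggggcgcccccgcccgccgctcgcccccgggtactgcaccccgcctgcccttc
Scg2: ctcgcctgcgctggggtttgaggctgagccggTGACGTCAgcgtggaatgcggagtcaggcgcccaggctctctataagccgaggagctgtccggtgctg
Dbh: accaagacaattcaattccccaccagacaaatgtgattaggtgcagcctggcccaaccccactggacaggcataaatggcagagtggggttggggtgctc
The motif was present in 588 of 32851 windows of all genes (1.79%), in 437 of 15919 windows of the genes tested (2.75%) and in 54 of 1534 windows of the genes that were higher in all Th-rich than in all Th-poor libraries (3.52%). These shares describe letters in the windows and not binding.

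Of 17616 genes other than Th that passed a filter on low counts, 1518 (8.62%) were higher in each Th-rich library than in every Th-poor library, and 24 (0.136%) were lower in each. Of the 1518 genes, 980 had at least a 4-fold and 469 at least a 16-fold difference of mean log2 CPM, while of the 24 lower genes 5 reached 2-fold and 0 reached 4-fold. The median over all genes was 0.21 on the log2 scale, and with TMM factors in place of the total counts it was -0.04, with 1130 genes higher and 163 lower. Higher genes were thus 98.4% of those without overlap, or 87.4% with TMM factors. Since D+1 IR 3 and D-3 IR 10 also held genes of other tissues, described further on, the count was repeated without both, which gave 1725 higher and 52 lower genes. With fewer libraries in a set and none put in their place such counts can only stay or grow, so the higher count without them is no test of their part. Without D+1 IR 1, 2 and 3 the 6 highest and 6 lowest of the other 16 libraries gave 1567 higher and 63 lower genes.

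**Figure D2:**
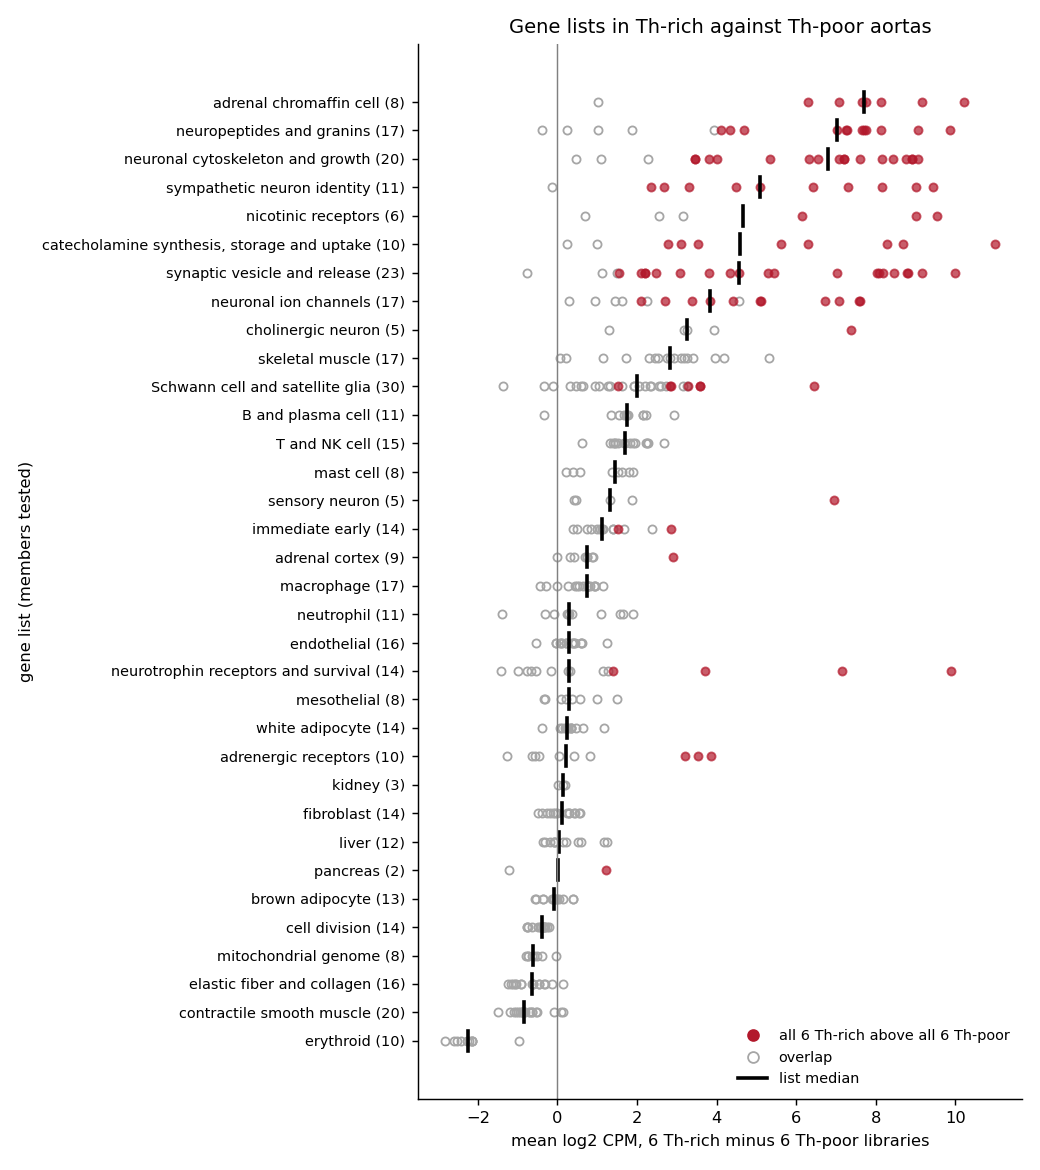
Difference of mean log2 CPM between the 6 Th-rich and 6 Th-poor libraries for each tested member of 34 gene lists, with filled points for genes higher in all 6 Th-rich than in all 6 Th-poor libraries, open points for genes whose sets overlap and a black bar at the list median. The medians are 7.02 for neuropeptides and granins, 4.58 for catecholamine synthesis, storage and uptake, 3.84 for neuronal ion channels and -0.83 for contractile smooth muscle (-1.08 with TMM factors).

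The genes of noradrenaline synthesis, storage and uptake were higher as a group. Of 10 tested members other than Th, 8 were higher in every Th-rich library, against 8.62% of all genes, with a median log2 difference of 4.58 against 0.21 for all genes. Ddc, the gene of dopa decarboxylase, had 128 to 564 CPM in Th-rich and 0.121 to 1.42 in Th-poor libraries. Slc6a2, the noradrenaline transporter, had 1531, 1183, 483, 284, 529 and 194 CPM in Th-rich and 5.30, 2.10, 0.417, 2.17, 2.56 and 0.844 CPM in Th-poor libraries. Its sets lay apart, with control 8 and D+1 IR 17 at the top, and its log2 difference was 8.29 (standard error 0.69). Slc18a2, the vesicular monoamine transporter VMAT2, had 67.9 to 425 CPM in Th-rich libraries but did not go below 2.15 CPM in any Th-poor library. Other members that did not overlap also kept a base level in Th-poor libraries, Maoa, which degrades monoamines, at 14.0 to 29.3 CPM, Cyb561, which supplies electrons to vesicular ascorbate, at 26.5 to 65.6 CPM and Gch1, which makes the cofactor of tyrosine hydroxylase, at 3.54 to 12.9 CPM. Maob, which degrades amines in many tissues, overlapped between the sets, with a log2 difference of 1.00.

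Transcription factors that give sympathetic neurons their identity lay in the same direction. Of 11 tested factors 10 were higher in every Th-rich library, against 8.62% of all genes, with a median log2 difference of 5.10. Phox2a, a homeobox factor of noradrenergic neurons, had 120.0, 106, 56.7, 32.0, 51.1 and 24.9 CPM in Th-rich libraries and at most 0.155 CPM in any Th-poor library. The basic helix-loop-helix factors Hand2 and Hand1 had 49.4 to 187 against 0.502 to 2.23 CPM and up to 82.8 against at most 0.258 CPM. Gata2 and Gata3 differed less, with log2 differences of 2.35 and 2.69, and Gata3 kept 1.34 to 7.51 CPM in Th-poor libraries.

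Of 14 tested genes of neurotrophin receptors and survival 4 were higher in every Th-rich library, against 8.62% of all genes, with a median log2 difference of 0.29 near that of all genes (0.21), among them the receptor genes Ngfr and Ret and, with a smaller log2 difference of 1.39, Gfra2, while the ligand genes in the list overlapped. Ngfr, the receptor p75, had 142 to 787 against 1.10 to 5.32 CPM, and Ret, the receptor of the glial cell line-derived factor family, 38.7 to 169 against 3.50 to 10.6 CPM. Bdnf, a neurotrophin, had 0 to 33.9 CPM in Th-rich and 1.31 to 27.3 CPM in Th-poor libraries, and its sets overlapped.

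Secreted peptides and the granins of dense-core vesicles lay far apart between the sets. Of 17 tested members 12 were higher in every Th-rich library, against 8.62% of all genes, with a median log2 difference of 7.02. Chgb (chromogranin B) had 248, 215, 99.4, 94.2, 70.3 and 65.7 CPM in Th-rich and 4.00, 0.828, 0.196, 0.216, 0.314 and 0.261 CPM in Th-poor libraries, with D-3 IR 14 the highest of the latter. Scg2 (secretogranin II) had 37.8 to 270.0 against 0.0980 to 0.954 CPM, and Vgf, another granin, 23.1 to 90.2 against 0.0603 to 0.466 CPM. Penk, the enkephalin precursor, overlapped, at 14.9 to 25.4 CPM in Th-rich and 2.77 to 21.2 CPM in Th-poor libraries.

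Some peptides, and the transporters of acetylcholine and choline, which a minority of sympathetic neurons use, followed another order than Th, while Ache, acetylcholinesterase, was highest in control 8 (249.7 CPM) and had 83.7 CPM in control 4. Gal (galanin) had 20.2, 16.3, 9.29, 8.19, 33.1 and 4.88 CPM in the Th-rich libraries, and was highest in control 4, the fifth by Th. Vip (vasoactive intestinal peptide) had 25.6 CPM in control 4 and 0 to 1.70 CPM in the other 5 Th-rich libraries. Sst (somatostatin) had 4.42 CPM in control 4 and 0.374 to 0.987 CPM in the others, and Slc18a3, the vesicular acetylcholine transporter, 4.49 CPM in control 4 and 0 to 0.746 CPM in the others. Slc5a7, the choline transporter, had 2.85 CPM in control 4 and 0.114 to 0.898 CPM in the others. These 5 genes thus shared their highest Th-rich library, which was also the lowest Th-rich library for Slc18a1, the vesicular monoamine transporter VMAT1, at 1.88 CPM against 5.34 to 50.1 CPM. In the intermediate libraries Vip and Slc18a3 were again highest in a single library, D-3 IR 15, at 3.44 and 0.870 CPM, although D-3 IR 12 had more Th.

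Most structural and synaptic genes of neurons were higher in every Th-rich library, against 8.62% of all genes. In the list of neuronal cytoskeleton and growth, 17 of 20 tested members did not overlap, among them Prph (peripherin, the intermediate filament of peripheral neurons), at 256 to 908 CPM against 0.322 to 3.31 CPM, and Nefl and Nefm, the light and medium neurofilaments, with log2 differences of 8.91 each. In the list of synaptic vesicles and release it was 20 of 23, including the SNARE protein Snap25 (72.0 to 552 against 0.0515 to 6.59 CPM) and the complexin Cplx1 (47.1 to 270 against 0.0618 to 1.57 CPM). Ion channels gave 11 of 17, with the sodium channel Scn9a at a log2 difference of 7.61. Nicotinic receptors, through which preganglionic fibers drive these neurons, gave 3 of 6. These 3 were the ganglionic subunits Chrna3 (36.6 to 258 against 0 to 0.722 CPM), Chrnb4 (16.1 to 114 against 0 to 0.180 CPM) and Chrna5 (1.80 to 11.9 against 0 to 0.241 CPM).

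The 20 genes with the largest differences without overlap ranged from 9.04 to 11.00 on the log2 scale. Many of their Th-poor values were at or near 0 counts, so the size and order of these differences depend on the prior count of 2. With a prior count of 0.5, 13 log2 differences of named genes moved by more than 1 SD. Beside Dbh, Npy, Chrna3, Hand1, Prph and the convertase inhibitor gene Pcsk1n they held Slc10a4, a transporter of synaptic vesicles, with 40.8 to 232 CPM in Th-rich libraries and 0 counts in 3 of the Th-poor ones. Htr3a, a serotonin-gated channel, had 79.7 to 329 against 0 to 1.43 CPM, and the homeobox gene Tlx2 15.6 to 68.0 against 0 to 0.0319 CPM. Others were the vesicle genes Rab3c and Syt1, the sulfotransferase Sult4a1, the RNA-binding protein gene Celf6, the Cdk5 activator Cdk5r2, the cholecystokinin receptor Cckar, and Vstm2l, Pirt, Slc7a14 and Bex2.

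The 7 intermediate libraries gave a test of these genes on samples outside both sets. Th ran from 4.59 to 152 CPM in them, a 33.2-fold range, and each gene's slope on log2 Th CPM was tested with edgeR, where a slope of 1 is a change in proportion to Th. Of 17342 genes other than Th, 394 (2.27%) rose with Th at an adjusted p under 0.05 and 0 (0%) fell. At an unadjusted p under 0.05 there were 1121 genes, 162 of them with a negative slope, and DESeq2 called 535 genes that rose and 14 that fell. The called slopes ranged from 0.24 to 1.66 with a median of 0.81, and 197 lay between 0.8 and 1.2. Of the 394 genes, 388 (98.5%) were also among the genes higher in every Th-rich than in every Th-poor library, and these 388 made up 27.1% of the 1434 such genes that were in both fits.

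**Figure D3:**
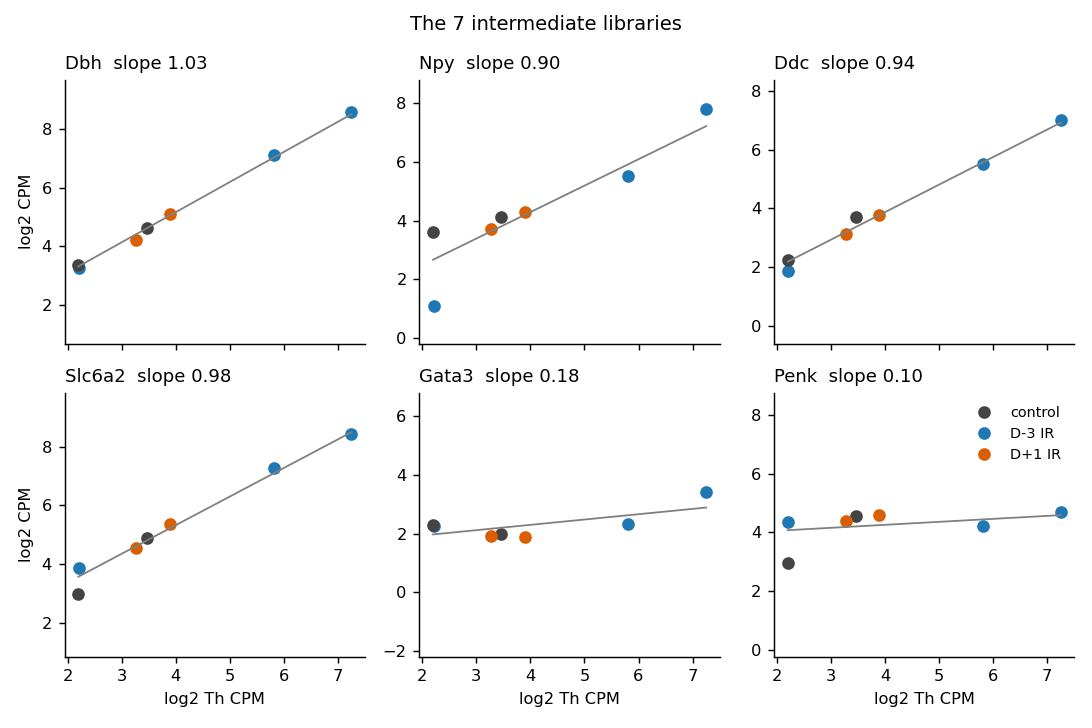
Log2 CPM of 6 genes against log2 Th CPM in the 7 intermediate libraries, colored by irradiation group, with a grey line of the edgeR slope drawn through the mean. Dbh, Ddc and Slc6a2 lie close to lines of slope 1.03, 0.94 and 0.98, Npy spreads more at low Th, and Gata3 and Penk have slopes of 0.18 and 0.10 that did not pass the test.

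Dbh had 381, 137, 34.1, 24.8, 18.8, 9.56 and 10.4 CPM in the intermediate libraries D-3 IR 12, D-3 IR 15, D+1 IR 19, control 9, D+1 IR 18, D-3 IR 13 and control 5. Only the last 2 of them were out of the order of Th. Its slope was 1.03 (standard error 0.04, edgeR adjusted p = 3.5e-05), and the ratio of Dbh to Th differed by 1.28-fold between the highest and the lowest of these libraries. Ddc had a slope of 0.94 (standard error 0.05, edgeR adjusted p = 9.5e-05). Npy varied more, from 2.12 CPM in D-3 IR 13 to 12.2 CPM in control 5 at nearly equal Th, a 5.80-fold range of its ratio to Th and a slope of 0.90 (standard error 0.13, edgeR adjusted p = 0.0069). Among the 10 genes with the smallest p were Dbh, Syt1, Slc10a4, Ddc, Syn2, Slc18a2, Syt4, Avil and Sv2c, of which Syt1, Syt4, Syn2 and Sv2c are members of the list of synaptic vesicles and release.

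Against 2.27% of all genes, the slope was called for 7 of 10 genes of noradrenaline synthesis, storage and uptake, 5 of 11 identity factors, 9 of 15 peptides and granins, 13 of 20 genes of cytoskeleton and growth, 16 of 23 synaptic genes, 7 of 17 ion channels, 3 of 6 nicotinic receptors and 3 of 14 genes of neurotrophin receptors and survival. The identity factors called included Phox2a, Hand1, Hand2 and Tfap2b, while Isl1, Gata2 and Gata3 had slopes of 0.33, 0.33 and 0.18 that did not pass (edgeR adjusted p = 0.55, 0.095 and 0.75). Gal had a slope of 0.82 that did not pass either (edgeR adjusted p = 0.21). All 20 of the genes with the largest differences were called, with slopes from 0.90 to 1.17. Of the other lists, 21 had 0 members called.

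These calls rest on the upper end of the Th range. Without D-3 IR 12, the intermediate library with the most Th, 36 genes were called, among them Dbh with a slope of 1.05, and without any other single library 266 to 389. When D-3 IR 12 and D-3 IR 15, the libraries farthest from the median Th, were both left out, a choice made after the data were seen, 0 genes were called by edgeR over the 5 libraries that remained, with 323 of 16589 genes at an unadjusted p under 0.05. With irradiation group as a further term 110 genes were called.

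**Figure D4:**
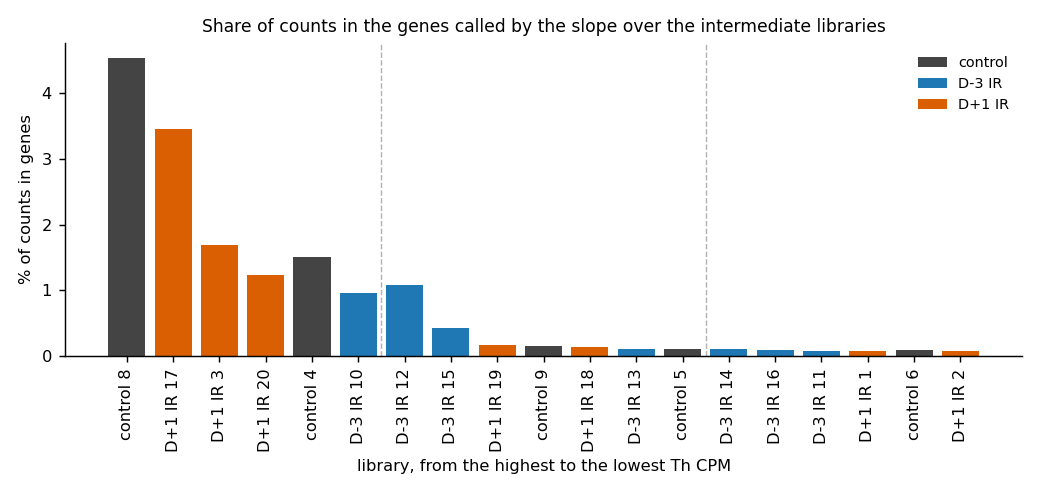
Percent of all counts in genes taken by the 394 genes called in the 7 intermediate libraries, per library in the order of Th, colored by irradiation group. The share is 0.962% to 4.55% in Th-rich and 0.064% to 0.101% in Th-poor libraries, which had no part in the choice of these genes.

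The 394 genes together took 4.55% of all counts in control 8, 3.45% in D+1 IR 17, 1.69% in D+1 IR 3, 1.23% in D+1 IR 20, 1.51% in control 4 and 0.962% in D-3 IR 10. In Th-poor libraries they took 0.064% to 0.101%. The Th-rich libraries all lay above the Th-poor ones, and the highest share was in the library with the most Th.

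The label of sympathetic neurons was checked against markers of other cells that make catecholamines or other transmitters. All 12 markers of sympathetic neurons other than Th were higher in every Th-rich library and called in the intermediate libraries. Dbh and Npy among them were given with Th, and the gene lists were chosen with earlier results of these data known. The count of 12 is therefore no independent check of the label. Pnmt, the enzyme that makes adrenaline in chromaffin cells of the adrenal medulla, had at most 0.225 CPM in any library and 2 to 17 counts in the Th-rich ones. Of 8 tested genes of the chromaffin list 7 were higher in every Th-rich library, against 8.62% of all genes. They were Slc18a1, Chga, Chgb, Scg2, Syt1, Cacna1b and Htr3a, and all but Chga had a called slope, 6 of 8 against 2.27% of all genes. Slc18a1 had 1.88 to 50.1 against 0 to 0.422 CPM. Chga, Chgb and Scg2 are also in the list of peptides and granins, and Syt1 in that of synaptic vesicles. Low Pnmt does not tell neurons from any chromaffin cells without Pnmt, and the part of such cells was not tested. Chat, choline acetyltransferase, had at most 0.452 CPM, in control 4 (13 counts), then 0.137 CPM in D-3 IR 15 (12 counts). Every other library had 0 to 2 counts of Chat. Control 4 and D-3 IR 15 were also the libraries in which Vip and Slc18a3 stood highest in their class. The sensory sodium channel Scn10a had at most 0.311 CPM. Of 12 listed sensory neuron genes 5 were tested, and Avil alone of these was higher in every Th-rich library, against 8.62% of all genes. Avil had 27.4 to 153 against 0.374 to 0.894 CPM and a called slope of 0.88 (edgeR adjusted p = 2.0e-04). The part of sensory neurons was not tested. Ache, which noradrenergic neurons also make, had 63.8 to 249.7 against 0.443 to 1.15 CPM and a called slope of 0.86 (edgeR adjusted p = 3.2e-04).

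**Figure D5:**
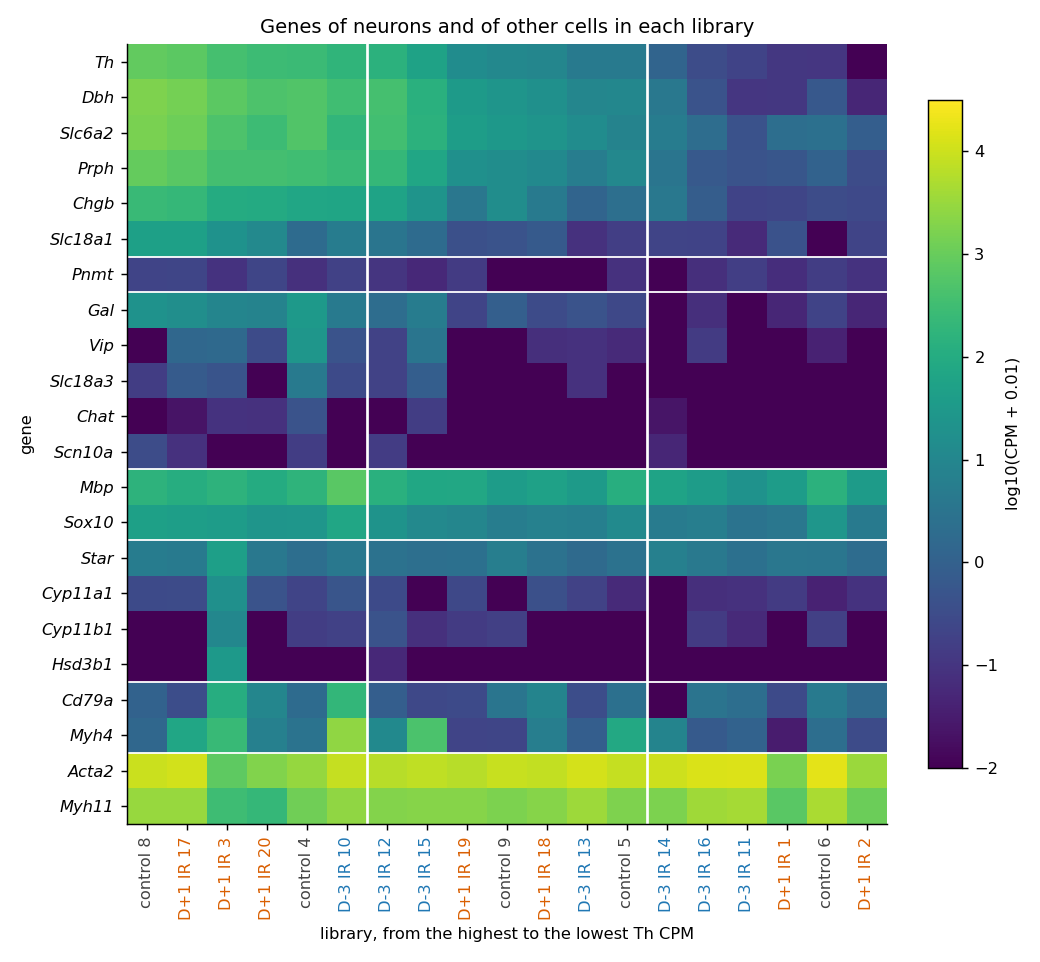
Log10 of CPM plus 0.01 for 22 genes of sympathetic neurons, chromaffin cells, cholinergic and sensory neurons, Schwann cells, adrenal cortex, B cells, skeletal muscle and smooth muscle in each library in the order of Th. Pnmt stays at or under 0.225 CPM throughout, adrenal cortex genes stand out in D+1 IR 3 alone, and Myh4 and Cd79a are highest in D-3 IR 10.

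Genes of the adrenal cortex stood out in a single Th-rich library. In D+1 IR 3 the steroidogenic genes Star, Cyp11a1, Cyp11b1, Cyp21a1 and Hsd3b1 had 46.0, 18.5, 10.3, 13.6 and 31.5 CPM. In the other 5 Th-rich libraries Star had 2.19 to 5.22 CPM, Cyp11a1 0.209 to 0.514 CPM and Cyp11b1 0 to 0.171 CPM, and Hsd3b1 had 0 counts. Cyp11a1 was nonetheless the 1 of 9 tested cortex genes that was higher in every Th-rich library, against 8.62% of all genes. The Th-poor libraries had at most 0.124 CPM of it. D+1 IR 3 had 383 CPM of Th, the third highest, and 0.0774 CPM of Pnmt. B cell and T cell genes were also high in D+1 IR 3 and D-3 IR 10, whose summed levels of the B and plasma cell list were 814 and 1187 CPM against 73.1 to 190 CPM in the other Th-rich and 82.5 to 151 CPM in the Th-poor libraries. Without both of these libraries the median log2 difference was 4.91 for genes of noradrenaline synthesis, storage and uptake and 5.34 for identity factors, against 4.58 and 5.10 with them. Without D+1 IR 3 alone the medians were 4.61 and 5.15, and without D-3 IR 10 alone 4.82 and 5.25. D-3 IR 10 had the least Th of the Th-rich libraries, so leaving it out raises genes that follow Th. These medians are therefore no test of the part of the other tissues.

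Genes of glia, the cells that wrap axons and ganglion cell bodies, were in part higher in Th-rich libraries. Of 30 tested genes of Schwann cells and satellite glia 7 were higher in every Th-rich library, against 8.62% of all genes. Their median log2 difference was 2.00. The count of 7 was 18 without control 6 and 12 without D+1 IR 20, and 5 with TMM factors. It was 4 with the ranking by Dbh, with 7 against 7 libraries or without D+1 IR 1, 2 and 3. In the intermediate libraries 1 of 30 had a called slope (2.27% of all genes), the adhesion molecule gene L1cam, which neurons also express. Sox10, a transcription factor of glia, had 50.4, 42.8, 38.7, 24.3, 25.4 and 69.3 CPM in Th-rich and 5.15, 5.96, 2.92, 3.72, 26.5 and 4.44 CPM in Th-poor libraries. Its sets overlapped because control 6, a Th-poor library, had 26.5 CPM of Sox10 with 0.0941 CPM of Th. Fabp7, a fatty acid-binding protein of satellite glia and immature Schwann cells, came closest to the neuronal genes, with 18.4 to 176 against 0.0804 to 4.20 CPM and a slope of 0.66 that did not pass (edgeR adjusted p = 0.11).

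Receptors for noradrenaline and neuropeptide Y split by type. The alpha-2 receptors Adra2a, Adra2b and Adra2c, which sit on the neurons as well as on other cells, were higher in every Th-rich library (19.0 to 85.7 against 1.60 to 3.92 CPM for Adra2a). They were 3 of 10 tested members of the list, against 8.62% of all genes. Their slopes were 0.49, 0.64 and 0.39, of which that of Adra2b passed (edgeR adjusted p = 0.035). The other 7 tested members of that list overlapped, among them Npy1r, a receptor of neuropeptide Y in smooth muscle, with 6.29 to 43.0 CPM in Th-rich and 9.66 to 93.1 CPM in Th-poor libraries.

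The listed genes of the vessel wall overlapped between the sets. Of all genes 8.62% were higher and 0.136% lower without overlap, so a count of 0 in any single list of this size is near those shares. Of 20 contractile smooth muscle genes 0 were higher or lower in every Th-rich library. Of these genes 1 was lower without overlap with the ranking by Dbh, with 5 against 5 libraries, or without D-3 IR 10, with or without D+1 IR 3. Their median log2 difference was -0.83 (-1.08 with TMM factors), and it was -0.46 without D+1 IR 3 and -0.48 without D+1 IR 20. Acta2, smooth muscle actin, had 9432, 11700.0, 782, 1858, 2982 and 8610.0 CPM in Th-rich libraries, so D+1 IR 3 and D+1 IR 20 were the lowest, and the Th-poor D+1 IR 1 had 1561 CPM. Of 10 erythroid genes 0 did not overlap, with a median log2 difference of -2.25 (-2.47 with TMM factors). Lists of endothelial, fibroblast, macrophage and adipocyte genes had 0 members without overlap, although 1 endothelial gene had none without control 4. Elastic fiber and collagen genes had 0 of 16 without overlap, but 2 were lower without D+1 IR 1, 2 and 3 and 1 without D+1 IR 2. Skeletal muscle genes had a median of 2.83, 1.27 without D+1 IR 3 and D-3 IR 10, and 0 of 17 members without overlap, and Myh4, a fast myosin, ranged from 1.49 to 2597 CPM among Th-rich libraries. With 5 against 5 libraries, or without D-3 IR 14 or control 6, 1 skeletal muscle gene was higher without overlap. Mitochondrial genes took 4.49% to 17.2% of counts in Th-rich and 10.0% to 22.9% in Th-poor libraries. The part of these differences in cell content in the neuronal genes was not tested.

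The 24 genes that were lower in every Th-rich library had log2 differences of -0.22 to -1.97. Fgf16, a growth factor, had 2.28, 1.64, 0.232, 0.898, 1.29 and 1.31 CPM in Th-rich and 4.06, 3.89, 4.51, 3.31, 6.33 and 4.18 CPM in Th-poor libraries. Ano1, a chloride channel of smooth muscle, had 6.96 to 31.3 against 31.4 to 53.6 CPM, and the clock gene Per2 6.47 to 12.3 against 12.3 to 34.4 CPM, so that both sets nearly touched. Of the 23 of these genes in the intermediate fit 19 had a negative slope and 0 were called. Immediate early genes respond to stimulation and to handling of tissue. In their list 2 of 14 tested members, Fos and Egr2, were higher in every Th-rich library, against 8.62% of all genes. Fos had 29.5 to 366 against 5.44 to 26.0 CPM. Neither the slope of Fos nor that of Egr2 passed the test in the intermediate libraries (slopes -0.29 and -0.33, edgeR adjusted p = 0.97 and 0.87). With TMM factors, the ranking by Dbh, 7 against 7 libraries or without D+1 IR 1, 2 and 3, 0 of 14 members were without overlap. The count was 4 without control 4, control 6 or D+1 IR 20.

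The study compared irradiation groups, and Th and the genes that follow it were tested for that too. With edgeR over all 19 libraries, 0 of 17617 genes (0%) differed among the 3 groups, 1171 had an unadjusted p under 0.05, and DESeq2 called 21. Of the 1518 genes higher in every Th-rich library 0 differed with edgeR. Their share with an unadjusted p under 0.05 was 0.395% (6 genes), against 6.65% of all genes. Th had an adjusted p of 0.86 with edgeR and 0.82 with DESeq2, Dbh of 0.88 and 0.84, and Npy of 0.93 and 0.91. The log2 fold change of Th was -2.05 for D-3 IR and -0.21 for D+1 IR, each against control. Within the groups the SD of log2 Th CPM was 4.07 to 5.61, so changes of this size may go undetected. The highest D-3 IR library had 179 CPM of Th, against 875 CPM in control and 749.5 CPM in D+1 IR.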

How the data were processed

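Per the labels and methods, FastQC was run on the reads, and STAR 2.7.9a mapped them to GRCm38 and counted them per gene. The authors deposited these raw counts, not normalized, with 1 file per library, and its unstranded column was analysed. CPM are counts over a library's total in genes, and log2 CPM used a prior count of 2. The members, gene lists and the rule for named genes were chosen with earlier results of these data known. Genes named are Th, Dbh and Npy, the 20 largest differences and 10 largest falls without overlap, the 10 smallest p of the slope, all members of 5 lists, up to 4 of each other list and the markers of cell types.

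Tests used edgeR 4.0.16 in R 4.3.3 (TMM factors, default filter on low counts, quasi-likelihood F-tests in the older form, two-sided, Benjamini-Hochberg adjustment at 0.05), and DESeq2 1.42.0 as an alternative. The slope model had log2 Th CPM alone over the 7 intermediate libraries, and the group model had no intercept over all 19. Both were tested on simulated counts. Gene positions are from GENCODE M21 and promoter sequences from RefSeq. The alternatives changed the scaling, filter, prior count, strand, ranking gene, number of libraries a side, test, covariate and libraries included. Some genes are not reported here by name. The joined table of all libraries was not used.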

Additional observations from a re-analysis of the deposited data

Results flagged for a closer look

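In groups of 6 libraries or of a study group, a value was singled out when it lay far from the others by Dixon's ratio at the 95% level. Of 63 groups of values looked at 6 were singled out, and chance gives about 1 in 20, or 3.1. In D-3 IR 14, Slc18a2 was high among the Th-poor libraries (2.83 log2 CPM, 7.05 CPM), and Slc5a7 too (-2.17 log2 CPM, 14 counts). Each other Th-poor library had 0 counts of Slc5a7, so any count in D-3 IR 14 would have been singled out. This library also stood apart in its small counts. In D+1 IR 3, Star (5.52 log2 CPM) and Cyp11a1 (4.21 log2 CPM) were high among the Th-rich libraries. In D-3 IR 10, Mbp (9.4 log2 CPM), a gene of Schwann cells, was high among the Th-rich libraries, and in control 6 Sox10 was high among the Th-poor ones (4.73 log2 CPM).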

How the results depend on the processing

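The count of genes higher in every Th-rich library was 1518 and stayed within 1.5 times of it under every alternative tried (1130 with TMM factors to 1936 without control 4). The count of lower genes was 24 and was 163 with TMM factors, 55 without mitochondrial counts in the total, 61 with 5 against 5 and 4 with 7 against 7 libraries, 63 without D+1 IR 1, 2 and 3, 52 without D+1 IR 3 and D-3 IR 10 (an alternative added after the data were seen), and 26 to 54 without each library in turn, highest without control 8. With libraries left out and not replaced these counts can only stay or grow. The ranking by Dbh kept 5 of 6 Th-rich and all 6 Th-poor libraries. Of the intermediate slopes, 394 rose, and the alternatives gave 110 with irradiation group as a term, 36 to 389 without each library in turn, lowest without D-3 IR 12, and 0 without the 2 farthest libraries. Slopes that fell numbered 0, but 2 without a filter, 14 with DESeq2 and 0 to 1 without each library. Among the study groups, edgeR called 0 genes under every alternative, while DESeq2 called 21 for any difference, 1 higher and 1 lower in D+1 IR against control and 50 higher and 6 lower in D-3 IR against D+1 IR. The cause was not tested for any of these. Of single-gene log2 differences, 4121 stayed within 1 SD of the reported value and 43 moved by more. Many of the 4121 were fixed in advance and are no test. Leaving out 1 library of 6 always shifts a mean by less than 1 SD, and the filter does not alter the value. The 43 moves came with TMM factors, a prior count of 0.5, counts of the second strand or without D+1 IR 1, 2 and 3. Of single-gene slopes 1950 kept their side of the threshold, 131 lost it and 10 gained it. No result of a named gene without overlap, or with a called slope, turned its direction. For genes without overlap this was fixed wherever libraries were left out and not replaced, or the filter alone changed. No paired analysis was made, since each mouse gave 1 library in 1 group and the labels name no pairs.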
